A study of Saccharomyces cerevisiae with 6 samples.

Results

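HO, RME1, NEJ1 and SWI5 are 4 genes around the haploid state and mating-type switching of budding yeast, and they are described here from 6 Affymetrix expression arrays. They were chosen by gene symbol, with their signals on these arrays and their difference between the groups already known, and they are 4 of the 5449 yeast genes measured. Each gene was read by 1 probe set of its own. The cells carry the label BY4743, with the genotype MATa/α his3Δ1 leu2Δ0 met15Δ0 ura3Δ0 lys2Δ0, and both groups grew in YPD with 0.01% of the detergent SDS for 2 days at 25 °C. The 3 control arrays hold RNA from untreated cells, extracted with FastRNA Pro Red. The 3 zymolyase arrays hold RNA from cells first digested for 20 min at 25 °C with zymolyase, which breaks the glucan of the cell wall, and then extracted with MagExtractor. The effects of the enzyme and of the extraction kit cannot be told apart. The labels do not name separate cultures within a group, so the spread behind each p-value is that between arrays and may be technical.

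HO encodes the endonuclease that cuts the mating-type locus MAT and so lets a haploid cell switch between the a and alpha types. Laboratory strains derived from S288C, BY4743 among them, carry an HO allele without activity, although the gene is still transcribed. Rme1 is a zinc-finger protein that blocks meiosis in haploid cells by holding down IME1, the activator of meiotic genes. Nej1 binds Lif1, a partner of DNA ligase IV, and is needed for the end joining of broken DNA. In a/alpha diploids the repressor formed by the a1 and alpha2 proteins turns HO, RME1 and NEJ1 off. Swi5 is a zinc-finger activator that enters the nucleus at the end of mitosis, starts the activation of HO in mother cells and also acts on RME1. SWI5 itself is transcribed with the mitotic cyclin gene CLB2 and is not a target of the a1-alpha2 repressor.

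Signals are MAS5 values on a linear scale, which do not compare different probe sets, so each gene is compared only with itself and with background. Background was taken as the 95th percentile of the probe sets for a second yeast species on the same array, 8.3 to 10.9 by array. A positive log2 difference means a higher signal in the zymolyase arrays, and each is given with the standard error (SE) of a limma fit over all genes. A gene passed at a Benjamini-Hochberg adjusted p under 0.05 over the 5449 genes. In that fit 22.5% of all genes were higher and 20.0% lower in the zymolyase arrays, and the groups of 3 did not overlap in 52.9% of all genes. Within a group the correlation between arrays was 0.953 to 0.985. In both groups array 1 departed most from its group, and values without it are given below. The fit without both arrays numbered 1 was added after the data were seen, and it gave the low end of many ranges of adjusted p below. The 3′ over 5′ signal ratio of 8 control genes was 1.49, 1.98 and 1.99 on control arrays 1, 2 and 3, and 4.57, 7.21 and 6.71 on zymolyase arrays 1, 2 and 3. Its log2 differed by 1.74 (exact two-sided permutation p = 0.1, the smallest that 3 against 3 can give), and its part in any difference below was not tested.

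The arrays went against the diploid label, and the values below are those of cells labelled BY4743. The 4 alpha-specific markers, which include the receptor for a-factor and the alpha-factor genes, lay between 1485 and 7412 on every array. Their summed signal ranged from 12320 to 15110 in the control group and from 9813 to 16820 in the zymolyase group. Such sums add probe sets that are not on a common scale, so they compare only the arrays for 1 list. The alpha-factor gene MF(ALPHA)1 alone read 4142 to 7412. By limma 0 of the 4 rose and 0 fell, beside 22.5% and 20.0% of all genes, with 1 and 0 at an unadjusted p under 0.05. Without zymolyase array 1, 2 of the 4 fell, and without both arrays numbered 1, 3 fell. Of all genes, 1175 and 1543 fell in those fits, against 1092 in the main fit. With the replicate block SAG1, the agglutinin gene, was higher (0.57, limma adjusted p = 0.0208) and MF(ALPHA)1, for alpha-factor, lower (-0.39, 0.0470). The 7 a-specific markers, among them the alpha-factor receptor gene STE2 and the a-factor gene MFA1, lay between 8.0 and 133.8, with sums of 206.6 to 255.0 and 243.9 to 402.4. Of these 7, 5 were above background on all 6 arrays, beside 96.8% of all genes, and AGA2 and ASG7 on 5 of 6. None of the 7 was at 0, and 1, MFA1, rose (1.66, SE 0.29, limma adjusted p = 0.00350, and 2.24e-05 to 0.0196 over the alternatives).

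Of 6 listed genes of the mating-type cassettes, which hold the regulators of HO, RME1 and NEJ1, 3 were measured. HMRA1, with the sequence of a1, the partner that the diploid repressor needs, read 6.3, 3.6 and 1.7 on the control arrays and 2.4, 0.6 and 2.3 on the zymolyase arrays. All 6 values were below background. HMLALPHA1, with the sequence of the alpha1 activator, read 931.5, 806.7 and 823.0 against 495.7, 206.8 and 218.7, and fell by 1.60 on the log2 scale (SE 0.32, limma adjusted p = 0.00612, and 1.27e-08 to 0.0280 over the alternatives). HMRA2, whose sequence is also part of alpha2, read 2307, 2513 and 2440 against 3353, 5619 and 4610, and rose by 0.87 (SE 0.20, limma adjusted p = 0.00914, and 9.82e-05 to 0.0361). The probe sets of HMLALPHA1 and HMRA2 are of a kind that copies share, so the cassette that gave each signal is not known.

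HO, RME1, NEJ1 and SWI5 were all above background on all 6 arrays, as were 96.8% of all genes. The lowest ratio of signal to background was 29.1 for HO, 73.8 for RME1, 45.6 for NEJ1 and 66.1 for SWI5. In a bulk culture, fewer cells that transcribe a gene and less transcript per cell cannot be told apart.

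**Figure D1:**
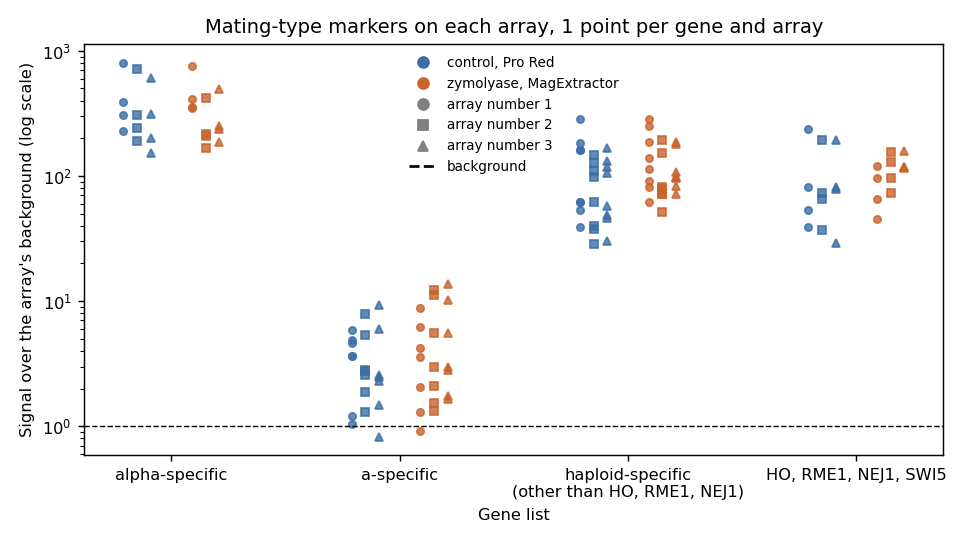
Signal divided by the background of the same array (log scale) for alpha-specific, a-specific and haploid-specific genes and for HO, RME1, NEJ1 and SWI5, with 1 point per gene and array and the dashed line at background. The 4 genes lie at 29.1 times background or more on every array, and the a-specific genes reach down to below the line.

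HO showed the widest difference of the 4 genes. Its signal was 322.5, 385.7 and 282.0 on control arrays 1, 2 and 3, and 859.3, 1706 and 1321 on zymolyase arrays 1, 2 and 3. All 3 zymolyase arrays were above all 3 control arrays, with the lowest of them on array 1. The means were 330.1 ± 52.3 and 1295 ± 424 (SD, n = 3 each), which is 3.81-fold higher or a log2 difference of 1.93 (SE 0.26). The difference was 1.41 between the arrays numbered 1, 2.14 between those numbered 2 and 2.23 between those numbered 3. The pair numbered 1 showed the smallest of the 3 differences. The HO signals of the zymolyase arrays had the same order as their 3′ over 5′ ratios of 4.57, 7.21 and 6.71. The signals of NEJ1 and SWI5 had this order too, and those of RME1 the reverse order. The part of this ratio in these differences was not tested.

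HO stood high among all genes by the size of its difference. Its value was above that of 99.2% of the 5449 genes, and above that of 99.0% with the trend of difference on coding length removed. The coding length of HO is 1761 bases, against a median of 1236, and the difference was 1.75 with that trend removed. It was 2.19 without both arrays numbered 1, and 1.77 with each array centred on its median. Centring lowered every difference by 0.16, a shift that applies to all genes alike. The spread of HO within the groups was 0.39 on the log2 scale (pooled SD), larger than that of 78.2% of genes. Within the zymolyase group the highest array was 1.98 times the lowest, and within the control group 1.37 times.

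RME1 went the other way, and its arrays were the most alike of the 4 genes. Its signal was 1955, 1994 and 1864 on the control arrays, and 1079, 802.4 and 982.6 on the zymolyase arrays. No zymolyase array reached the lowest control array. The means were 1938 ± 66.8 and 954.6 ± 140 (SD, n = 3 each), which is 2.04-fold lower or a log2 difference of -1.03 (SE 0.15). The difference was -0.86, -1.31 and -0.92 for the arrays numbered 1, 2 and 3. All 3 pairs had the same direction, and the pair numbered 2 had the largest difference. The control arrays of RME1 differed by at most 1.07 times, and its pooled SD of 0.16 was larger than that of 24.0% of genes only.

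The difference of RME1 was less extreme among all genes than that of HO. Only 8.81% of genes had a lower value, and 12.8% with the length trend removed. RME1 is a short gene with a coding length of 903 bases, and its difference was -0.83 with the trend removed, -1.19 with median centring and -1.12 without both arrays numbered 1. Swi5 acts on both HO and RME1, and the a1-alpha2 repressor on both, and in these arrays the first was higher and the second lower.

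The differences of NEJ1 and SWI5 were smaller than their spread between arrays. NEJ1 had signals of 445.5, 682.7 and 764.6 on the control arrays and of 410.4, 1048 and 998.6 on the zymolyase arrays. Array 1 was the lowest of both groups, and the groups overlapped. The means of NEJ1 were 630.9 ± 166 and 819.1 ± 355 (SD, n = 3 each), with a log2 difference of 0.30 (SE 0.38). The pairs numbered 1, 2 and 3 differed by -0.12, 0.62 and 0.39. The pair numbered 1 had the other sign. The pooled SD of NEJ1, 0.61, was larger than that of 92.9% of genes, and its zymolyase arrays spanned 2.55 times.

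SWI5 had signals of 674.1, 765.3 and 791.8 on the control arrays and of 594.5, 1396 and 970.2 on the zymolyase arrays. Here too array 1 was the lowest of both groups, and zymolyase array 1 was below all control arrays. The means of SWI5 were 743.7 ± 61.7 and 986.9 ± 401 (SD, n = 3 each), with a log2 difference of 0.33 (SE 0.29). The pairs numbered 1, 2 and 3 differed by -0.18, 0.87 and 0.29, again with the other sign in the pair numbered 1. The zymolyase arrays of SWI5 spanned 2.35 times and its control arrays 1.17 times. SWI5 has the longest coding sequence of the 4 genes, 2130 bases, and its difference was -0.01 with the length trend removed. NEJ1, of 1029 bases, had 0.43 there.

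Zymolyase array 1 weighed on both genes. Without it the difference was 0.73 for NEJ1 and 0.65 for SWI5, and without zymolyase array 2 it was 0.06 and 0.03. Without control array 1 it was 0.06 for NEJ1 and 0.26 for SWI5, and without zymolyase array 3 it was 0.09 for NEJ1 and 0.30 for SWI5. Without both arrays numbered 1 the differences were 0.50 and 0.58. HO and RME1 ranged from 1.70 to 2.20 and from -1.13 to -0.91 when any 1 array was left out.

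**Figure D2:**
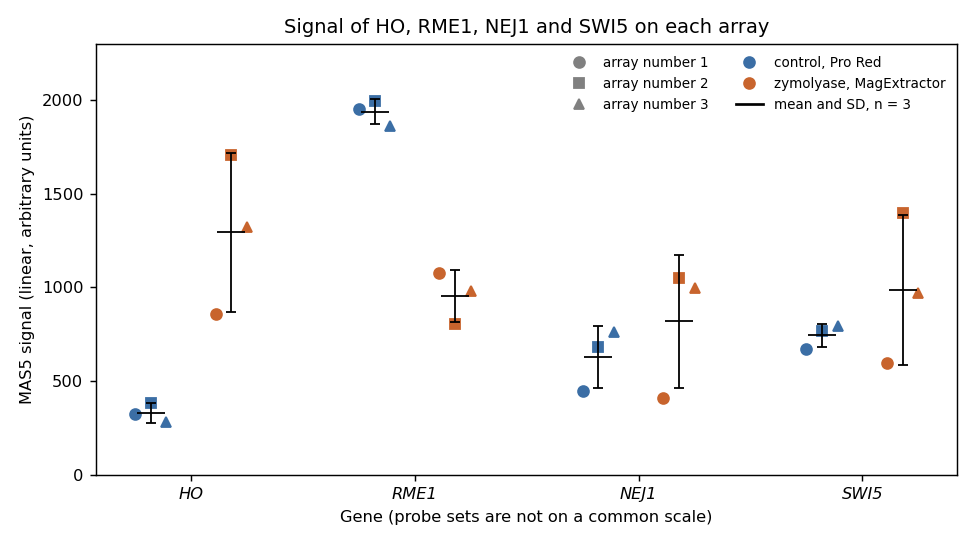
MAS5 signal (linear scale) of HO, RME1, NEJ1 and SWI5 on each of the 6 arrays, with marker shape for the array number and bars for mean ± SD (n = 3). The groups lie apart for HO (282.0 to 385.7 against 859.3 to 1706) and RME1, and overlap for NEJ1 and SWI5, where array 1 is the lowest of both groups.

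Of the 4 genes, 1 passed as higher and 1 as lower in the fit over all genes, beside 22.5% and 20.0% of all genes, and 2 of 4 had groups that did not overlap, beside 52.9%. The genes were chosen with this contrast known, so nothing is read from those counts.

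**Figure D3:**
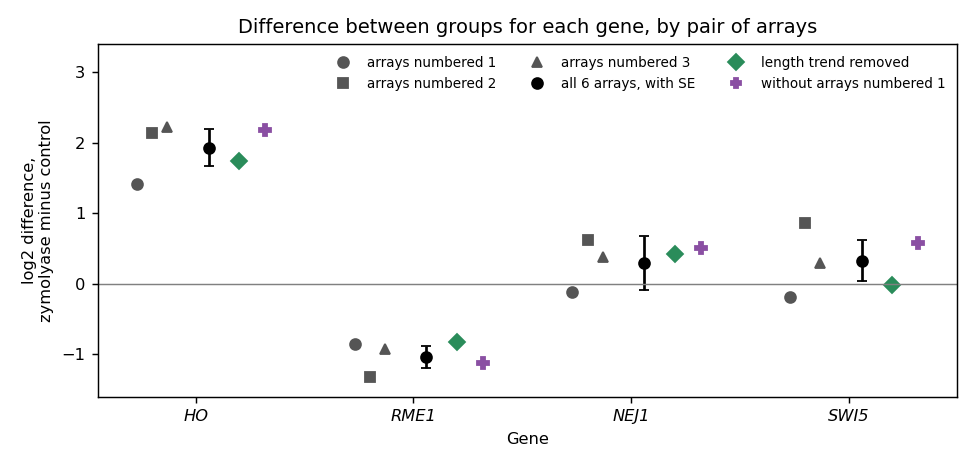
Log2 difference of zymolyase minus control for HO, RME1, NEJ1 and SWI5: by pair of same-numbered arrays, over all 6 arrays with the SE of the fit, with the length trend removed, and without both arrays numbered 1. HO (1.41 to 2.23) and RME1 (-1.31 to -0.86) keep their sign in all 3 pairs, and NEJ1 and SWI5 change sign in the pair numbered 1.

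The patterns of NEJ1 and SWI5 over the 6 arrays were close to each other. After each gene was centred on its own mean, the root mean square difference between NEJ1 and SWI5 was 0.24 on the log2 scale, and 1.21% of all genes lay closer to NEJ1 than SWI5 did. HO was 0.89 from NEJ1 and 0.82 from SWI5, and 33.1% and 26.7% of genes lay closer to it. HO and RME1 lay farthest apart, at 1.54. These distances describe 6 arrays that share their 2 groups, and genes with a like group difference lie close by this measure.

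By the same measure, the 3 genes nearest to HO were SEN1, a helicase of transcription termination (0.16), PXR1, a factor of ribosomal RNA processing (0.18), and EOS1, a membrane protein of the endoplasmic reticulum (0.20). The log2 differences of SEN1, PXR1 and EOS1 were 1.95, 1.92 and 1.79, and all 3 were lowest among zymolyase arrays on array 1, as HO was. The nearest to RME1 were SWD3, of the COMPASS histone methyltransferase (0.05), MSM1, a mitochondrial methionyl-tRNA synthetase (0.06), and CAF40, of the Ccr4-Not complex (0.07), with differences of -0.98, -1.03 and -0.91. RME1 thus had closer neighbours in pattern than HO. The nearest to NEJ1 were UBP9, a ubiquitin protease (0.10), YLR326W, of unknown function (0.10), and STE6, the a-factor exporter (0.11). The nearest to SWI5 were SEC2, of vesicle transport (0.10), RFC1, of the DNA clamp loader (0.10), and ERJ5, a chaperone of the endoplasmic reticulum (0.11). All 6 of these genes, like NEJ1 and SWI5, did not pass in the fit.

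The genes beside the 4 on their chromosomes did not share one direction with them. SSB1 and GCS1, on either side of HO, had differences of -0.12 and 0.34 with SEs of 0.16 and 0.17, against 1.93 for HO, and neither passed. SSB1 is an abundant ribosome-associated chaperone read by a probe set of the shared kind. RME1 lies between NQM1, a relative of transaldolase, and TAM41, of mitochondrial lipid synthesis, and both were lower like RME1 itself, each by 1.12 with SEs of 0.34 and 0.19. Between RME1 and TAM41 lies 1 annotated gene that was not among those measured. NQM1 (limma adjusted p = 0.0302, and 1.23e-05 to 0.0862 over the alternatives) lost its call when control array 1 (0.0615), control array 3 (0.0862), zymolyase array 2 (0.0762) or zymolyase array 3 (0.0729) was left out and after removal of the length trend (0.0554), and TAM41 (0.00304, and 1.99e-05 to 0.0157) kept it. YLR264C-A and PDR8, beside NEJ1, had differences of -0.75 (SE 0.28) and 0.11 (SE 0.17), and neither passed. Without zymolyase array 1 YLR264C-A passed (-1.08, limma adjusted p = 0.00242 in a range of 1.55e-05 to 0.189), and with the replicate block as well (0.00839). Beside SWI5, TAF12 had -0.26 (SE 0.14) and did not pass except without both arrays numbered 1 (-0.36, limma adjusted p = 0.0302) and with median centring or quantile normalization (range 0.0302 to 0.375), and EKI1, an ethanolamine kinase, rose by 1.15 (SE 0.34, limma adjusted p = 0.0270, and 4.33e-07 to 0.103 over the alternatives). EKI1 lost its call when control array 1 (0.0552), control array 2 (0.0545), zymolyase array 2 (0.103) or zymolyase array 3 (0.0913) was left out, and under quantile normalization (0.0504).

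HO, RME1 and NEJ1 share their repressor with 8 other haploid-specific genes, mostly of pheromone signalling. Of the 8, 4 rose, 0 fell and 4 did not pass, beside 22.5% and 20.0% of all genes (4 and 1 by unadjusted p under 0.05). With the replicate block 1 of the 8 fell, STE4, of the pheromone G protein (-0.49, limma adjusted p = 0.0350). STE4 also fell with median centring (0.0329) and quantile normalization (0.0487), without zymolyase array 1 (0.00578) and without both arrays numbered 1 (0.000228). The median log2 difference of the 8 was 0.46, against 0.04 for all genes. FUS3, the mating kinase, rose by 1.21 (SE 0.26, limma adjusted p = 0.00743, and 7.50e-07 to 0.0326 over the alternatives), and AXL1, a protease of a-factor maturation and of haploid budding, by 0.96 (SE 0.14, 0.00195, and 1.19e-05 to 0.0780). With the length trend removed 1 of the 8 rose, and AXL1 lost its call (0.36). The count of 4 was 3 with median centring, quantile normalization or no intensity trend. It was also 3 without control array 2 or 3, or without zymolyase array 1 or 2. HO had the larger difference of 1.93, RME1 lay on the other side of 0 and NEJ1 within its error.

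Genes that passed were found among both the activators and the repressors of HO. Of 10 activators, which include Swi4 and Swi6 and the SWI/SNF and SAGA complexes, 6 rose, 0 fell and 4 did not pass (median 0.71). Of 7 repressors, 5 rose, 1 fell and 1 did not pass (median 0.80), and 2 fell with the replicate block, where WHI5 also passed (-1.22, limma adjusted p = 0.0396). WHI5 read 210.7 on control array 1, 49.6 and 45.6 on control arrays 2 and 3, and 29.9 to 36.3 on the zymolyase arrays. Without both arrays numbered 1 it had -0.55 (limma adjusted p = 0.15). The shares of activators and repressors were 60.0% and 71.4% higher, and 0% and 14.3% lower, beside 22.5% and 20.0% of all genes. SNF2, the ATPase of SWI/SNF, rose by 1.65 (SE 0.14, limma adjusted p = 0.000854, and 1.45e-08 to 0.00773) and ADA2, of SAGA, by 0.92 (SE 0.17, 0.00472, and 5.98e-06 to 0.0228). SWI6 rose by 0.77 (SE 0.18, 0.0121, and 0.000979 to 0.166), and lost its call with the length trend removed (0.35). Its partner SWI4 had a difference of -0.19 (SE 0.21, 0.506), and -0.75 with the length trend removed (0.0275, in a range of 0.0275 to 0.945). ASH1, which keeps HO off in daughter cells, fell from 1830 ± 188 to 887.0 ± 360 (SD, n = 3), by 1.13 (SE 0.29, limma adjusted p = 0.0167, and 6.54e-06 to 0.0464). Of the Sin3-Rpd3 complex that represses with Ash1, SIN3 rose by 1.47 (SE 0.23, 0.00262, and 5.67e-07 to 0.0324) and SDS3 by 0.998 (SE 0.22, 0.00903, and 0.000283 to 0.0422). The count of 5 repressors that rose was 3 without control array 2 and 2 without zymolyase array 2 or 3. After removal of the length trend 3 activators rose and 2 fell. The transport of ASH1 mRNA into the daughter cell, which places Ash1 there, has 8 listed genes, of which 3 rose, 2 fell and 3 did not pass (median 0.51), with shares of 37.5% and 25.0% near the 22.5% and 20.0% of all genes. Of these, BNI1, a formin (1.51, SE 0.15, limma adjusted p = 0.00100), and SHE3, an adaptor of the transport myosin (1.09, SE 0.14, 0.00145), rose, and HEK2 and SHE2, which bind the mRNA, fell (-1.17, SE 0.17, 0.00196, and -0.79, SE 0.18, 0.00932). SHE2 lost its call with the length trend removed (0.0542). Without both arrays numbered 1, 5 of the 8 rose, and 1779 of all genes rose there against 1224 in the main fit.

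SWI5 is transcribed with the CLB2 cluster, of which 13 of 14 other listed genes were measured. Of these, 5 rose, 3 fell and 5 did not pass (median 0.11), which is 38.5% and 23.1% beside 22.5% and 20.0% of all genes. CLB2 fell by 2.18 (SE 0.15, limma adjusted p = 0.000851, and 3.69e-09 to 0.00773) and CHS2, a chitin synthase of the septum, by 1.35 (SE 0.18, 0.00147, and 9.57e-06 to 0.00972). BUD4, of bud site selection, rose by 1.07 (SE 0.19, 0.00374, and 5.26e-07 to 0.124) and MYO1, the myosin of the division ring, by 1.10 (SE 0.20, 0.00452, and 9.78e-06 to 0.206). Both lost their call with the length trend removed (0.41 and 0.35). The count of 5 became 2 when control array 2, control array 3, zymolyase array 2 or zymolyase array 3 was left out, and 1 after removal of the length trend. Among the regulators of SWI5 transcription, MCM1 fell by 1.21 (SE 0.18, 0.00204, and 2.16e-06 to 0.0123), FKH2 rose by 1.26 (SE 0.18, 0.00187, and 5.31e-07 to 0.0121), and NDD1 had -0.60 (SE 0.21, 0.0534), which passed without zymolyase array 2 (-0.82, 0.0207), with the replicate block (0.0293) and under 3 other alternatives, in a range of 0.0207 to 0.15. FKH1 did not pass (0.08).

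Of 11 further targets of Swi5 or its relative in early G1, 5 fell, 1 rose and 5 did not pass (median -0.40), which is 45.5% lower and 9.09% higher beside 20.0% and 22.5% of all genes. CDC6, a replication licensing factor, fell by 1.13 (SE 0.17, limma adjusted p = 0.00213, and 8.42e-05 to 0.0123), close to RME1, and SCW11, a wall glucanase of cell separation, by 0.61 (SE 0.17, 0.0217, and 0.00501 to 0.0772). SIC1, the inhibitor of mitotic cyclin kinase, rose by 0.60 (SE 0.15, 0.0158, and 0.000196 to 0.0670). SCW11 lost its call without control array 2 (0.0772) or 3 (0.0530) or zymolyase array 2 (0.0743), and SIC1 when control array 2 (0.0551), control array 3 (0.0670), zymolyase array 2 (0.0603) or zymolyase array 3 (0.0602) was left out and with median centring (0.0517) or quantile normalization (0.0568). The count of 5 lower was 3 without control array 1, 1 without control array 2, 2 without control array 3, 1 without zymolyase array 2 and 8 without both arrays numbered 1. In that last fit 1543 of all genes were lower, against 1092 in the main fit.

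Of 5 targets and partners of Rme1, 0 rose and 0 fell by limma (median -0.04), beside 22.5% and 20.0% of all genes. At an unadjusted p under 0.05, and also with the replicate block, 1 rose and 1 fell. IME1 read 100.5, 87.6 and 88.6 on the control arrays against 108.8, 75.3 and 87.7 on the zymolyase arrays, a difference of -0.04 (SE 0.21) beside the -1.03 of RME1. CLN2, a G1 cyclin gene that Rme1 activates, had 0.31 (SE 0.32, limma adjusted p = 0.465), and 0.73 without control array 1 (0.00549, in a range of 0.000168 to 0.870). Its signal was 1597 on that array and 651.2 to 696.1 on the other two control arrays. FLO11, an adhesin gene that Rme1 activates, had -0.75 (SE 0.26, 0.0511), and passed with the replicate block (0.0406), with the length trend removed (0.00754) and under 3 other alternatives, in a range of 0.00754 to 0.189. Of 7 genes of meiotic entry downstream of IME1 or beside it, 2 fell, 0 rose and 5 did not pass (median -0.31). The share of 28.6% lower is near the 20.0% of all genes, and 0% were higher beside 22.5%. The 2 were RIM4, an RNA-binding regulator (-0.90, SE 0.17), and RIM11, a kinase that acts on Ime1 (-0.71, SE 0.17). RIM4 had a limma adjusted p of 0.00506 (0.00217 to 0.0243). RIM11 had 0.0115 and lost its call without control array 2 (limma adjusted p = 0.0501 in a range of 0.000379 to 0.0501).

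NEJ1 works with 8 listed end-joining genes, of which 3 rose (37.5%, beside 22.5% of all genes), 0 fell and 5 did not pass, with 5 and 0 at an unadjusted p under 0.05. Their median was 0.67, and 0.37 after removal of the length trend, where 3 of the 8 (DNL4, XRS2 and RAD50) had values below 0. MRE11, a nuclease at broken ends, rose by 1.21 (SE 0.16, limma adjusted p = 0.00153, and 4.54e-06 to 0.0107), and RAD50, its partner, by 0.61 (SE 0.16, 0.0161, and 0.00661 to 0.949). RAD50 lost its call without control array 2 (0.0652) or zymolyase array 3 (0.0584), and its difference was -0.01 once the length trend was removed. LIF1, whose protein Nej1 binds, had 0.72 (SE 0.25, 0.0524), and YKU80, of the end-binding Ku complex, 0.94 (SE 0.36, 0.0646). YKU70 and DNL4, the second Ku subunit and the ligase, had 0.25 (SE 0.38) and 0.35 (SE 0.32), near the 0.30 of NEJ1. Like NEJ1, YKU70 was lowest in both groups on array 1, at 207.5 and 283.6. With the replicate block 5 of the 8 rose, LIF1 (0.0154) and YKU80 (0.0114) among them, and without both arrays numbered 1, 6 rose. More of all genes rose in those fits too, 1702 and 1779 against 1224 in the main fit. Without zymolyase array 1, where 1304 of all genes rose, 6 of the 8 rose as well. Among them were LIF1 (0.0457 in a range of 0.0154 to 0.173), YKU80 (0.00267 in a range of 2.09e-05 to 0.214) and DNL4 (0.0462 in a range of 0.0181 to 0.779). Without control array 3 LIF1 also passed (0.0331). The count of end-joining genes that rose was 1 without control array 2, without zymolyase array 3 and after removal of the length trend. Of 5 measured genes of homologous recombination, the other route of repair, 3 rose, 0 fell and 2 did not pass (median 0.88). The shares were 60.0% higher and 0% lower, beside 22.5% and 20.0% of all genes, and 2 of the 5 rose with median centring. RAD54, a translocase, rose by 0.88 (SE 0.17, limma adjusted p = 0.00574, and 2.93e-05 to 0.108), with 0.40 once the length trend was removed. RAD52, of strand annealing, rose by 1.05 (SE 0.26, 0.0131, and 7.91e-07 to 0.0511), and lost its call without control array 2 (0.0511), where 1 of the 5 rose.

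**Figure D4:**
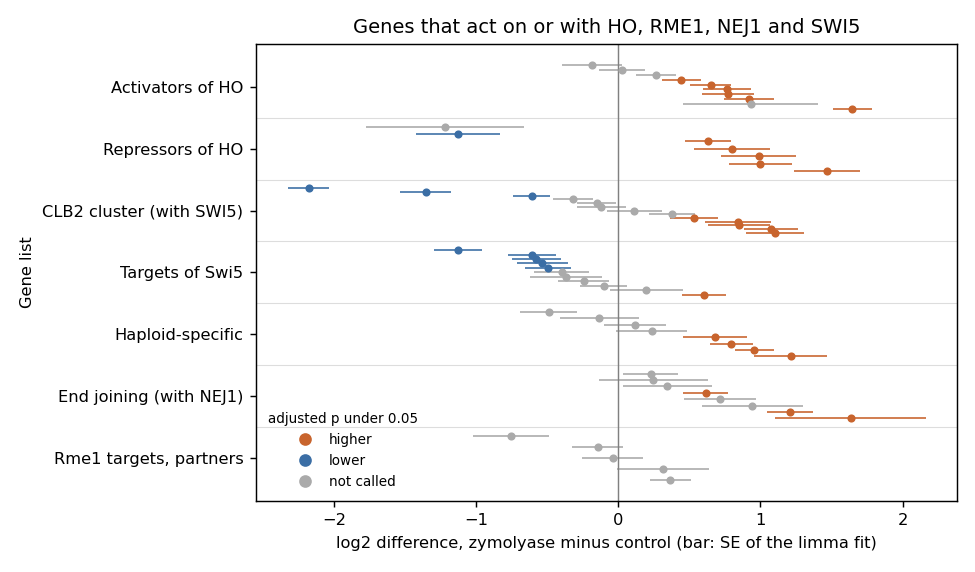
Log2 difference of zymolyase minus control (points) with the SE of the limma fit (bars) for the genes of 7 lists around HO, RME1, NEJ1 and SWI5, coloured by whether they passed at an adjusted p under 0.05 as higher or lower. Genes on both sides of 0 passed among the repressors of HO, the CLB2 cluster and the targets of Swi5, and none passed among the targets and partners of Rme1.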

How the data were processed

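The authors deposited 1 table with a MAS5 signal intensity for each probe set and array, not log-transformed; MAS5 is named in the submitters' processing notes, and its version and settings are not given in the sources used here. The mean after trimming 2% at each end was 500.2 to 500.3 on all 6 arrays, a common scale. Zeros (7, none in a S. cerevisiae probe set) were set to 0.1, and log2 values were fitted with limma 3.58.1 in R 4.3.3 (lmFit, eBayes with an intensity trend), checked on simulated data. Of 10928 probe sets, 5498 had 1 symbol matched to S. cerevisiae through gene identifiers (assembly R64); for 47 genes with several, the brightest was used, which gave 5449 genes. Lengths are coding lengths (97.0% divisible by 3). The number of arrays limits the precision. No set test was run.

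The members, and 14 lists of related genes, were chosen with earlier results of these data known. The genes named are the members; at most 2 per list and direction by p; genes known to act directly on a member; the measured neighbours on the chromosome, added later; and the 3 genes nearest in pattern to each member. Of 105 listed genes 100 were measured. The other 5 are not analysed here.

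The labels number the arrays 1 to 3 in each group. For same-numbered arrays the deviations from the group mean correlated at 0.489, 0.20 and 0.405 across genes. For arrays of unlike number the values were -0.434 to 0.234, with 0.234 for control 2 and zymolyase 3, and 0.20 for control 3 and zymolyase 2. These values set the arrays numbered 1 apart and do not settle whether arrays 2 and 3 are paired by number. The labels name no shared batch. The main fit was unpaired, and pairing by number was used only for the replicate block and the differences between same-numbered arrays. Alternatives were the replicate block, median centring, quantile normalization, log2(value + 16), leaving out the dimmest 10% of genes, all probe sets of a gene, no intensity trend, removal of a loess trend on coding length, each array left out, and, added after the data were seen, leaving out both arrays numbered 1. This last fit gave, for CLB2, a limma adjusted p of 3.69e-09, against 0.000527 with the replicate block.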

Additional observations from a re-analysis of the deposited data

How the results depend on the processing

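HO was higher and RME1 lower, and both passed, in all 15 alternatives, with differences of 1.70 to 2.20 for HO. The 4 genes were chosen with this contrast known, and the alternatives refit the same arrays. How often any of the 4 passed therefore adds no support, and only shows how far the values depend on the processing. RME1 moved by more than its spread with median centring (-1.19) and with the length trend removed (-0.83). NEJ1 ranged from 0.06 to 0.73 and SWI5 from -0.01 to 0.65, and each passed in 2 of the 15, without zymolyase array 1 and without both arrays numbered 1. With the replicate block the paired fit had 1702 genes higher and 1490 lower, against 1224 and 1092, and it changed the call of none of the 4 genes. Without both arrays numbered 1 the counts were 1779 higher and 1543 lower. When 1 array was left out, 851 to 1350 genes were higher and 740 to 1175 lower. Median centring gave 951 and 1463, or 39.4% of calls higher in place of 52.8%. Of 420 counts of list genes recomputed, 361 stayed within 1.5 times the reported count and 59 did not, 29 of them with fewer genes. The cause of these changes was not tested. Signals below background, as for HMRA1, give no difference that can be read.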
